A study of Mus musculus with 2 samples.

Results

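Arpp21, Aqp11, Spo11, Slc7a11 and Nrgn were examined here as markers of the double-positive stage of T cell development, in which thymocytes carry both CD4 and CD8, although each of these genes is better known from another organ. They were taken by name from GENCODE M21, 5 of 21938 protein-coding genes on the mm10 build. All 5 were found, on chromosomes 9, 7, 2, 3 and 9 in that order. The study mapped open chromatin by DNase-seq, in which DNase I cuts nuclear DNA where it is not covered by nucleosomes, in thymus of male B6CASTF1/J mice aged 2 months. There was 1 untreated group of 2 biological replicates, whose labels number separate animals but give the same donor identifier. B6CASTF1/J mice are first-generation offspring of C57BL/6J and CAST/EiJ, so that autosomal loci, such as those of the 5 genes, were present as one C57BL/6J and one CAST/EiJ copy, while the coordinates are those of the C57BL/6J genome; a difference between the alleles was not tested. With 1 group no test between groups was possible, and RNA was not measured, so the values below describe accessibility only. The thymus held many cell types, and a region open in more cells cannot be told apart from a region opened more strongly in each cell.

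Arpp21 encodes a cAMP-regulated phosphoprotein known from striatal neurons, and a long form of the protein is made in thymocytes. Nrgn encodes neurogranin, a postsynaptic protein that binds calmodulin at low calcium. Aqp11 encodes an intracellular aquaporin whose loss causes kidney disease in mice, and Slc7a11 encodes xCT, the membrane exchanger that takes up cystine in return for glutamate and so feeds glutathione synthesis. Spo11 encodes the topoisomerase-like enzyme that makes the DNA double-strand breaks of meiosis. In DNase-seq, a promoter in use usually gives a peak of cuts at the transcription start site (TSS), a distal peak can be an enhancer or an insulator, and a footprint is a short stretch inside a peak that a bound protein shields from the enzyme.

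The sequences below come from the regions with the highest scores of each gene. They are the mm10 reference, written 5′ to 3′ on the gene's strand, and capitals mark the bases that lay in a footprint in both replicates. Each overlap between footprints of the 2 replicates is called a shared footprint below, and its width is that of the overlap. A long footprint can thus count more than once. Regions that lie in untranslated exons are shown only as 30 bases around a footprint. The first sequence lies upstream of the TSSs with the highest score in Arpp21, and the distal regions are shown because they were the highest or next highest of their gene.
Arpp21 upstream of its start-site cluster 3, chr9:112217352-112217540, minus strand: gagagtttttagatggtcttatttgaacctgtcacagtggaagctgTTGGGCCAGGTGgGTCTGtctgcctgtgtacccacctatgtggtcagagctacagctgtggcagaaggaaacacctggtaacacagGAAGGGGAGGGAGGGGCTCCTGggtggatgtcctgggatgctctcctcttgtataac
Arpp21 intronic distal region, chr9:112207881-112208160, minus strand: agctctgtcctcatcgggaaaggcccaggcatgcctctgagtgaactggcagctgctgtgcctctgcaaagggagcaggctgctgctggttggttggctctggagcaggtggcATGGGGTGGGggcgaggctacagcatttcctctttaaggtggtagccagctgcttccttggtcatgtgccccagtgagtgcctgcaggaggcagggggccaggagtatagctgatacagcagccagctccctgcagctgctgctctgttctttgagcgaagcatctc
Nrgn promoter, chr9:37552768-37552797, minus strand: cagtTCTCCCCGCCCACCCTGCAGAaagtg
Aqp11 promoter, chr7:97738167-97738196, minus strand: cCTTTCCCCCGCCCTCCCCCCCTCCCCGgc
Aqp11 upstream distal region, chr7:97748181-97748380, minus strand: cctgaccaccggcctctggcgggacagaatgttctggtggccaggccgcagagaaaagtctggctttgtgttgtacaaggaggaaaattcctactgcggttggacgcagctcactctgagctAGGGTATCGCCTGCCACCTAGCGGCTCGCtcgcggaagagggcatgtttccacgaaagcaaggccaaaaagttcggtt
Slc7a11 promoter region with the highest score, chr3:50442441-50442640, minus strand: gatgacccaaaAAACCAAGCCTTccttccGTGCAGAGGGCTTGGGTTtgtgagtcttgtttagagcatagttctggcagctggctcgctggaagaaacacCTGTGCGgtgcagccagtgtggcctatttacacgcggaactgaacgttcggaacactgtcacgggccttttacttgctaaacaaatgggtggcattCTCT
Slc7a11 intronic distal region, chr3:50381621-50381820, minus strand: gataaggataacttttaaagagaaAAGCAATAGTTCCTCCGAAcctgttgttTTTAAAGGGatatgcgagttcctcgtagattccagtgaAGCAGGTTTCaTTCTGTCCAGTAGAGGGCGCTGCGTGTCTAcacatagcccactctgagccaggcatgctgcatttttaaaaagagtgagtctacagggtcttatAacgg
Spo11 promoter, first window, chr2:172977452-172977481, plus strand: tggagctGCCTTTGAAGTGCAGGTgctgta
Spo11 promoter, second window, chr2:172977604-172977633, plus strand: cagaACGCTCCCTCCCCCCACCTTTGTcac
Spo11 downstream distal region, chr2:172996321-172996500, plus strand: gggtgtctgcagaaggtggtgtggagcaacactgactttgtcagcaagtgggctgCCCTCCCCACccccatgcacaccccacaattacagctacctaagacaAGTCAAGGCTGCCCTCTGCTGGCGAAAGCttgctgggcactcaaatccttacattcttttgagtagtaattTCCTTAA

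All 5 genes had a strict peak within 1000 bp of an annotated TSS in both replicates, against 59.0% of all protein-coding genes, and these 5 genes were picked as thymus markers. The score is the submitters' signal value of the highest such peak. Spo11 scored 10.3 in replicate 1 and 7.57 in replicate 2, and Aqp11 scored 10.3 and 7.06. The peaks of these 2 genes changed places between the replicates and did not differ beyond their spread. Arpp21 scored 6.15 and 4.05, Slc7a11 4.52 and 3.44, and Nrgn 2.37 and 2.84. The mean scores were 8.95 ± 1.95 for Spo11, 8.69 ± 2.32 for Aqp11, 5.10 ± 1.48 for Arpp21, 3.98 ± 0.763 for Slc7a11 and 2.60 ± 0.331 for Nrgn (SD, n = 2). Across the replicates the ranges of Arpp21 and Slc7a11 overlapped, and those of Slc7a11 and Nrgn did not. Within each replicate Arpp21 scored above Slc7a11, and Slc7a11 above Nrgn.

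**Figure D1:**
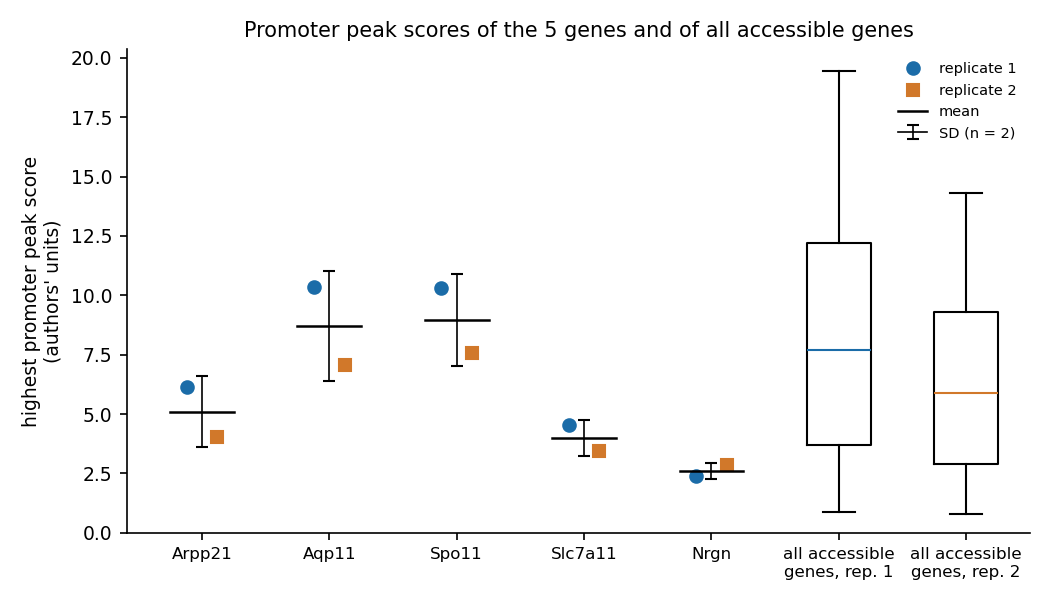
Highest promoter peak score (y axis, submitters' units) of the 5 genes in replicate 1 (circles) and replicate 2 (squares), with the mean and SD (n = 2), beside box plots of all 12935 accessible genes in each replicate (box, quartiles; whiskers, 5th to 95th percentile). Spo11 and Aqp11 lie above the median of all accessible genes, and the other 3 genes below it.

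As the plot of promoter scores shows, Spo11 and Aqp11 scored above 64.2% and 62.7% of the 12935 accessible genes, whose mean score had a median of 6.83 and quartiles of 3.36 and 10.7. Arpp21 scored above 37.6% and Slc7a11 above 29.5% of them, and Nrgn above 17.1% in replicate 1 and 24.5% in replicate 2. The meiotic gene and the aquaporin thus lay above the median, and both neuronal genes and the cystine exchanger below it. The score was lower in replicate 2 for 4 of the 5 genes, with log2 ratios of replicate 2 over replicate 1 of -0.60 for Arpp21, -0.55 for Aqp11, -0.45 for Spo11 and -0.39 for Slc7a11, and it was higher for Nrgn, with 0.26. Over all accessible genes the median ratio was -0.37 and the quartiles were -0.53 and -0.19, so Arpp21 and Aqp11 lay below that range and Nrgn above it. Expressed in the smallest step of the scores, which behaves like a scaled count, the Nrgn peak held 320 and 467 steps and the Aqp11 peak 1395 and 1161.

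Arpp21 spans chr9:112065091-112235938 on the minus strand and has 26 annotated TSSs, which fall into 5 clusters more than 1000 bp apart, numbered from the 5′ end. Its highest peak was not at the gene's 5′ end but at cluster 3, 18587 bp downstream, where the score was 6.15 in replicate 1 and 4.05 in replicate 2. Cluster 1, at the 5′ end, scored 3.31 and 1.84, and cluster 5 scored 1.61 and 1.09. Cluster 2 scored 1.47 in replicate 1 and had no strict peak in replicate 2. Cluster 4, where 11 transcripts begin, had no strict or looser peak in either replicate. Among the 8740 accessible genes with 2 or more start-site clusters, 17.1% had their highest peak over 1000 bp from the 5′ end in both replicates, and Arpp21 was the 1 of the 5 genes that did.

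Cluster 3 starts 4 coding transcripts, the longest of which has 601 codons, while coding transcripts of 807 or 809 codons start at clusters 1, 4 and 5. No Arpp21 transcript can be assigned to a peak from these data. The peak at cluster 3 lies in intron and untranslated exon of Arpp21 alone, with no TSS of another gene within 1000 bp. The peaks at the 5′ end, in contrast, lay within 1000 bp of a TSS of the non-coding gene 2900079G21Rik, and in replicate 1 one of them covered TSSs of both genes. An accessible 5′ end of Arpp21 therefore cannot be told apart from an accessible promoter of 2900079G21Rik.

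**Figure D2:**
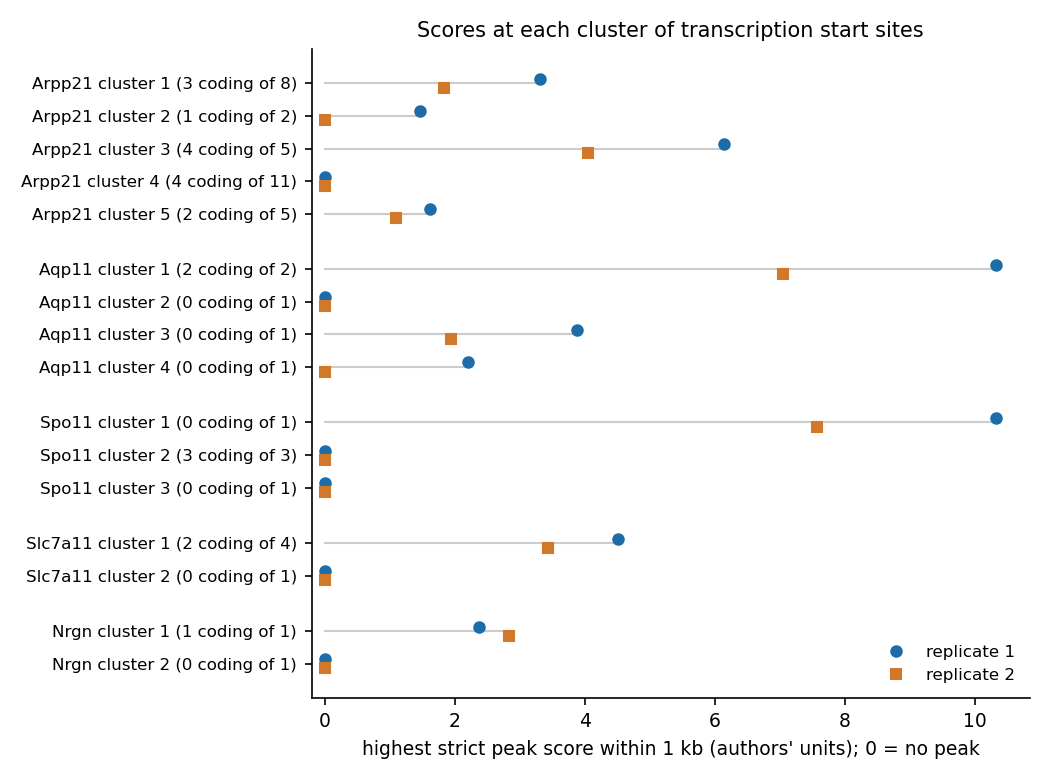
Highest strict peak score (x axis, submitters' units; 0 means no strict peak) within 1000 bp of each cluster of TSSs of the 5 genes, counted from the gene's 5′ end, in replicate 1 (circles) and replicate 2 (squares); labels give the coding and all transcripts that start in the cluster. The Spo11 cluster with 3 coding transcripts and Arpp21 cluster 4 are at 0 in both replicates.

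Arpp21 had 6 distal regions, meaning regions shared by both replicates, over 1000 bp from any TSS and within 50000 bp of one of its own; 12.8% of all genes had as many. At least 1 such region was found for all 5 genes, against 70.5% of all protein-coding genes. Genes with many TSSs reach further, and the 403 genes with 15 or more TSSs had a median of 3 and quartiles of 1 and 6. The highest Arpp21 region, chr9:112207881-112208160 in an intron, scored 8.96 and 6.18, more than the gene's own promoter in each replicate. Its mean of 7.57 ± 1.97 (SD, n = 2) lay above 98.5% of all shared distal regions. The next, chr9:112219441-112219700, scored 4.70 and 2.33 and lay 2090 bp from a TSS of Arpp21. Of the 6 regions, 5 had an Arpp21 TSS as their nearest and 1 was nearest to 2310075C17Rik, whose TSS lies inside Arpp21. The 4 shared footprints of the cluster 3 peak included one of 22 bp that overlaps the letters of an ETS site (CTTCCTG on the plus strand) and one of 12 bp over an E-box (CACCTG on that strand). They are the longest runs of capitals in the first printed sequence, where both sites are read from the other strand.

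Nrgn spans chr9:37544492-37552904 on the minus strand. Its promoter peak, chr9:37552661-37552880, lay 24 bp from the TSS of the coding transcript, within the 5′ untranslated exon, and scored 2.37 and 2.84. No other gene has a TSS within 1000 bp of it. The second Nrgn TSS, of a non-coding transcript, had no strict peak. The peak held 3 shared footprints, of which that of 21 bp covers the SP/KLF letters GGGCGG, printed above as their complement. Nrgn had 3 distal regions, a number that 38.7% of genes reached. The higher 2, chr9:37544761-37545100 with 2.53 and 1.93 and chr9:37544541-37544760 with 1.84 and 1.40, abut each other in the 3′ untranslated exon of Nrgn and had its TSS as the nearest. The first of them held a footprint of 46 bp. The remaining region, 23657 bp from the Nrgn TSS, scored 0.748 in each replicate and was nearest to Siae, in whose intron it lies.

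Aqp11 spans chr7:97724006-97738289 on the minus strand. Its highest peak, chr7:97737941-97738220, lay between the 2 coding TSSs, 3 bp from the nearer, and no TSS of another gene fell within 1000 bp. Its bases were 74.6% G or C with a CpG ratio of 0.629 (observed over expected), against a median of 62.7% and 0.727 over all shared promoter regions. It held 6 shared footprints, from 5 footprints in replicate 1 and 6 in replicate 2. All promoter regions of 200 to 400 bp had a median of 3 shared footprints (quartiles 2 and 5). The widest in this Aqp11 peak was 37 bp and overlapped 3 SP/KLF matches (GGGCGG), and the footprint of 27 bp printed above covered another. Of the non-coding TSSs, one at 7784 bp had a peak of 3.88 and 1.94, one at 8901 bp had 2.20 in replicate 1 alone, and one at 5062 bp had none on the strict list.

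Aqp11 had 5 distal regions, as many as 18.7% of genes; with the peaks of replicate 1 alone it had 17, and with the looser list 11. The highest, chr7:97748181-97748380, lies 9892 bp upstream of the gene, between genes, and scored 5.65 and 4.06. The next, chr7:97723701-97724460, scored 4.05 and 2.47 over the 3′ end of Aqp11, with 455 of its bases in untranslated exon. The nearest TSS belonged to Aqp11 for 4 of the 5 regions and to Clns1a for the other. The promoters of the neighbours Clns1a and Pak1, also within 50000 bp, had mean scores of 6.03 and 3.77. The Clns1a promoter scored 4.84 and 7.21 in replicates 1 and 2, so its order with Aqp11 changed between the replicates.

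Slc7a11 spans chr3:49892526-50443614 on the minus strand. Near its 5′ end were 3 regions shared by the replicates. The region over the coding TSSs, chr3:50443361-50443700, scored 3.61 and 2.21, and the next, over a coding exon, scored 2.70 and 1.22. The highest, chr3:50442441-50442640, lay 965 bp downstream of the TSS in an exon of a non-coding transcript, and scored 4.52 and 3.44. The highest score at this promoter was therefore just inside the 1000 bp window and not at the TSS itself, and with a window of 500 bp the mean was 2.91. That region held 4 shared footprints, of which 1 overlaps an E-box (CAGGTG).

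Slc7a11 had 1 distal region, and 70.5% of genes had as many. This region, chr3:50381621-50381820 in an intron, scored 5.28 in replicate 1 and 5.52 in replicate 2, above the promoter in each, and its mean of 5.40 lay above 95.7% of distal regions. It counted as near the gene only because a non-coding transcript starts 10822 bp away; its centre lies 61893 bp from the gene's 5′ end, where the coding transcripts start. It held 5 shared footprints, the widest of 30 bp, from 4 footprints in replicate 1 and 5 in replicate 2.

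Spo11 spans chr2:172977700-172993576 on the plus strand. Its highest peak lay at the gene's first TSS, where 1 transcript begins that is not annotated as coding. The 3 coding transcripts, of 358 to 396 codons, start 2142 bp further on, and there neither replicate had a strict or a looser peak or any base with a false discovery rate under 0.05. Among accessible genes with 2 or more start-site clusters, 4.92% had their highest peak over 1000 bp from every coding TSS in both replicates, and Spo11 was the 1 of the 5 genes that did. As the plot by start-site cluster shows, accessibility at Spo11 was high at the start of the non-coding transcript, with 10.3 and 7.57, and not detected at the start annotated for the meiotic enzyme. In RefSeq, exon sequence that is not coding covers 342 of the 360 bases of this region, chr2:172977361-172977720. Whether an mRNA for the meiotic enzyme starts there was not tested.

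No other gene has a TSS within 1000 bp of the Spo11 promoter peaks. The neighbouring promoter of Rae1, an mRNA export factor, lay 22381 bp downstream of the Spo11 5′ end with a mean score of 16.0, above that of Spo11. Beside the main peak, smaller promoter regions scored 2.45 and 3.11 upstream and 4.27 and 1.51 downstream, and the downstream one had a log2 ratio of -1.50 between replicate 2 and replicate 1. The main region had 58.6% G or C and a CpG ratio of 0.293, under the lower quartile of 0.441 over all promoter regions. Of its 5 shared footprints, one of 17 bp covers the TCF/LEF letters CTTTGA and overlaps the E-box CAGGTG, and one of 23 bp covers none of the letters searched; both are printed above.

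Spo11 had the most distal regions of the 5 genes, 9, a number that 4.26% of genes reached. Only 1 of the 9 had a Spo11 TSS as its nearest; it scored 1.47 and 1.27. The others were nearest to Bmp7 (3 regions), Rbm38 (3), Rae1 (1) and Gm14453 (1). The highest, chr2:173026661-173027120, scored 6.68 and 4.14 and lay 3611 bp from an Rbm38 TSS. The next, chr2:172996321-172996500, scored 3.93 and 3.99 between Spo11 and Rae1, 3617 bp from Rae1. The distal number of Spo11 was thus made up largely of regions beside its neighbours. With a reach of 25000 bp it was 2.

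**Figure D3:**
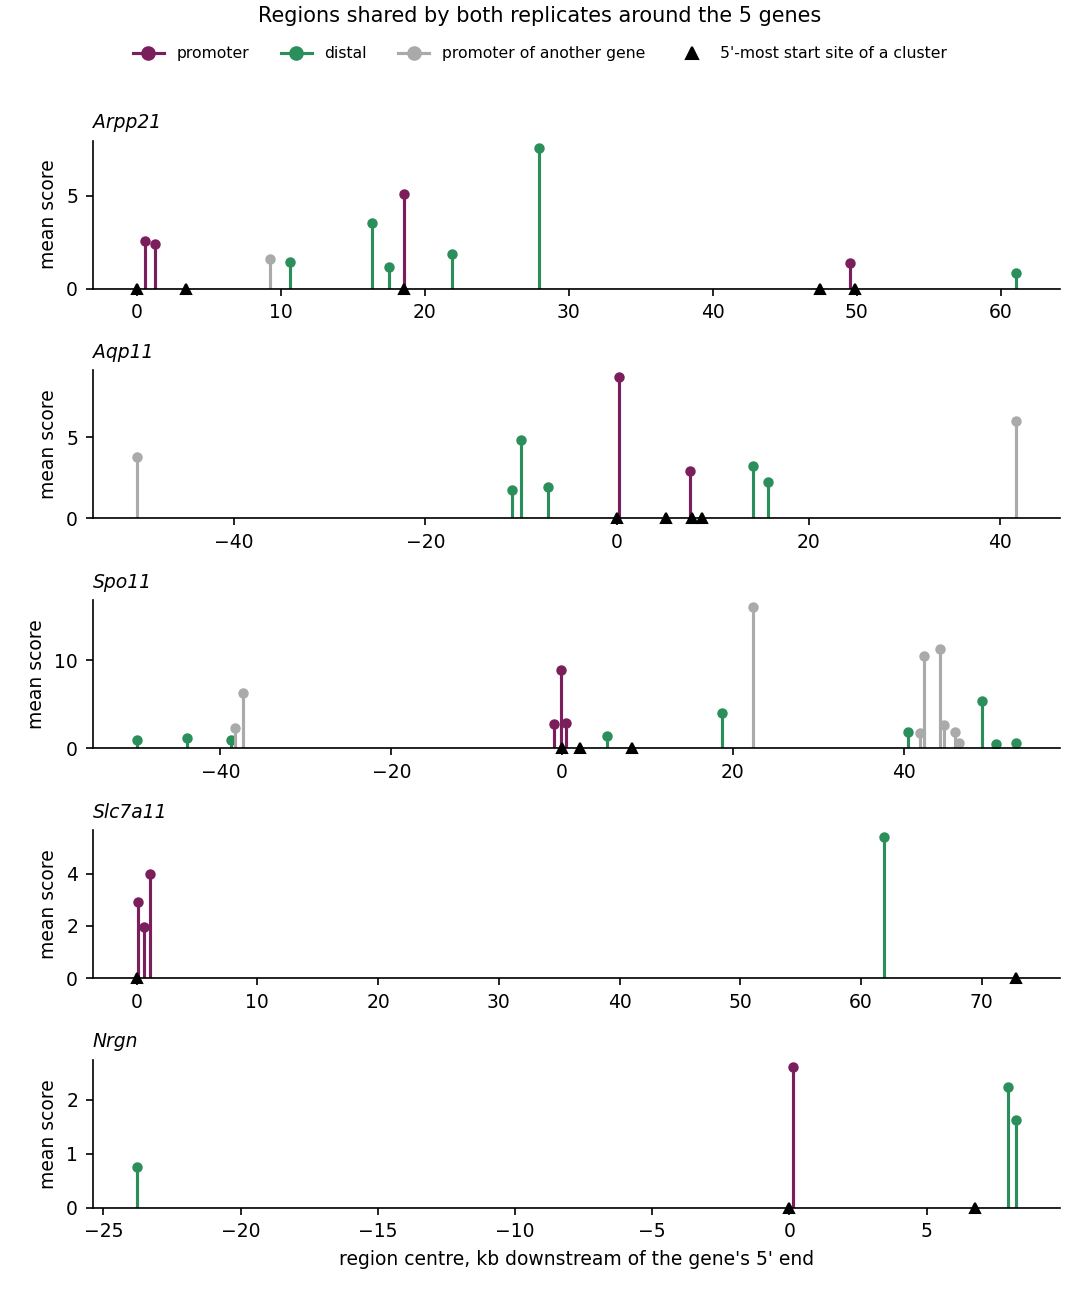
Mean score over both replicates (y axis, submitters' units) of every region shared by the replicates within 50000 bp of a TSS of each gene, by the distance of its centre from the gene's 5′ end in kb (x axis, positive downstream); triangles mark the 5′-most TSS of each cluster. The distal regions of Arpp21 lie inside the gene, and most of those counted for Spo11 lie beside promoters of other genes.

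The map of the 5 loci shows these differences side by side. Over the 5 genes, 13 of 24 distal regions were nearest to a TSS of the gene they were counted for and 11 to another gene's. The scores of the distal regions ran from a mean of 0.490, for a region near Rbm38 counted for Spo11, to 7.57 in Arpp21, and the median over all distal regions was 1.45. Only in Arpp21 and Slc7a11 did a distal region outscore the promoter in both replicates.

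**Figure D4:**
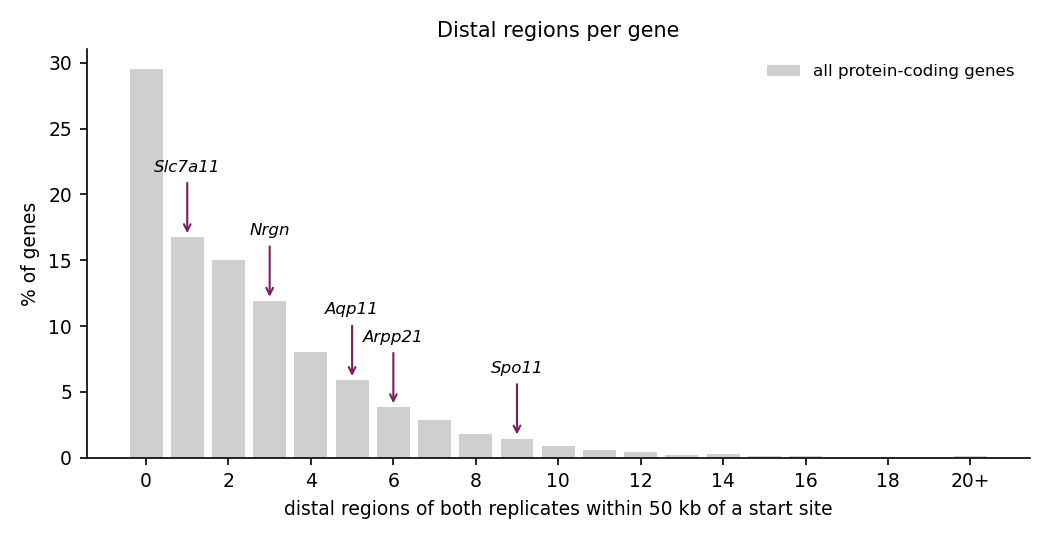
Share of all 21938 protein-coding genes (y axis, percent) by the number of distal regions within 50000 bp of a TSS (x axis, 20 or more in the last bar), with the 5 genes marked. Slc7a11 has 1 region, Nrgn 3, Aqp11 5, Arpp21 6 and Spo11 9, where the median gene has 2.

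Letters of known binding sites were searched on both strands, as a description. The 13 promoter and 24 distal regions of the 5 genes held 84 shared footprints, counted as overlaps. Their median width was 9 bp (quartiles 7 and 13.5), and the narrowest were 1 bp. Over all promoter regions the median was 11 bp and over all distal regions 10 bp. An E-box (CAGCTG or CAGGTG, the letters bound by E proteins and their partners) touched a shared footprint in 8 of the 37 regions, or 21.6%, and in 9.79% of all 51709 shared regions. All 5 genes had at least 1 such region, a share not computed for all genes, and genes with more regions reach it more easily. The SP/KLF letters did so in 10.8% of the 37 regions against 19.7% of all regions, ETS (CCGGAAG or CAGGAAG) in 8.11% against 6.65%, RUNX (TGTGGTT) in 2.70% against 2.03%, and TCF/LEF in 2.70% against 2.84%. In the central 200 bp, without regard to footprints, 28.0% of all promoter and 41.2% of all distal regions held an E-box. MYB (TAACGG or TAACTG or CAACGG or CAACTG), NRF2 (TGACNNNGC), NFAT (GGAAAA) and STAT (TTCNNNGAA) touched a footprint in 1 region each, or 2.70%, where the share of all regions was 4.23%, 3.24%, 2.34% and 1.11%. No footprint of the 37 regions was touched by the letters of ROR factors (TAGGTCA or TGGGTCA), Ikaros (TGGGAA), NFY (ACCAAT or GCCAAT), NRF1 (GCATGCG), CRE factors (TGACGTCA), AP-1 (TGANTCA), ATF4 (TGATGNAA), YY1 (AAGATGG) or the GATA family (AGATAA). Their shares over all regions ran from 0.269% for ATF4 to 4.24% for Ikaros. The MYB match touched a shared footprint of 1 bp.

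In 3 of the printed distal regions the widest footprint lay on longer letters of the insulator protein CTCF, CCNNNAGNNGGC. These letters were searched after the sequences had been seen, and they can overlap the shorter CTCF letters AGGNGGC, which touched a footprint in 16.2% of the 37 regions against 20.9% of all regions. The footprints were 29 bp wide in the upstream Aqp11 region, 30 bp in the Slc7a11 intron and 29 bp in the region between Spo11 and Rae1. A further Aqp11 region, chr7:97745401-97745560, had one of 31 bp. In all, 5 of 24 distal regions (20.8%) held the letters, against 30.2% of all distal regions in their central 200 bp. In 4 of the 5 they touched a shared footprint, a share not computed for all distal regions. The printed Arpp21 distal region held them outside any shared footprint. Among distal regions of the whole series, the median log2 ratio of replicate 2 over replicate 1 was 0.21 for those with the letters and -0.21 for those without. The regions with the footprint had ratios of 0.06 in Slc7a11, 0.02 beside Spo11, and -0.48 and 0.35 at Aqp11.

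Genes related to the 5 by family or pathway were counted in the same way, each count to be read against the 59.0% of all genes. Of the 11 other aquaporins, 2 had an accessible promoter: Aqp3 with 2.30 and 2.24, and Aqp9 with 0.785 and 0.839. Both were far under Aqp11, and Aqp1 was among the 9 without a shared promoter peak. Of 22 genes of meiotic breaks and synapsis, 11 were accessible, led by Prdm9 (23.8 and 17.1), which marks break sites, and Msh5 (16.0 and 11.1), a crossover factor; Ankrd31 had no strict promoter peak. Of the synaptonemal genes listed, Syce2 was accessible with 4.53 and 4.40, and Sycp1, Sycp2, Sycp3 and Syce1 had no strict peak. Of 16 SLC7 transporters and heavy chains, 7 were accessible, and the highest were Slc7a5 (13.9 and 11.3) and Slc3a2 (13.7 and 10.5), the heavy chain that pairs with xCT; Slc3a1, the other heavy chain, had no peak. The peaks of Slc7a5 also hold a TSS of BC048644, and that of Slc3a2 in replicate 1 holds one of Snhg1.

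All 8 genes of glutathione synthesis and use were accessible, the highest being Gpx4 (22.0 and 14.9), which reduces lipid peroxides, and Gss (12.1 and 9.49), the glutathione synthetase. Calmodulin and its binding proteins were accessible in 9 of 11 cases, led by Calm3 (23.7 and 15.2) and Camk2d (15.9 and 13.5), and Camk2a had a peak in replicate 2 alone, with 0.875. The median of that list, 4.74, lay above Nrgn, and its close relatives Gap43 and Pcp4 had means of 1.27 and 1.74. Pcp4l1 of the same list had no strict promoter peak in either replicate. All 7 ARPP and R3H-domain genes were accessible, led by Ensa (15.9 and 10.1) and R3hcc1l (13.1 and 11.3), and each of the 7 was above Arpp21 except Arpp19, with a mean of 4.79. Of 14 other double-positive genes, 13 were accessible, among them Satb1 (11.9 and 8.64), and Dntt had a peak in replicate 1 alone.

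**Figure D5:**
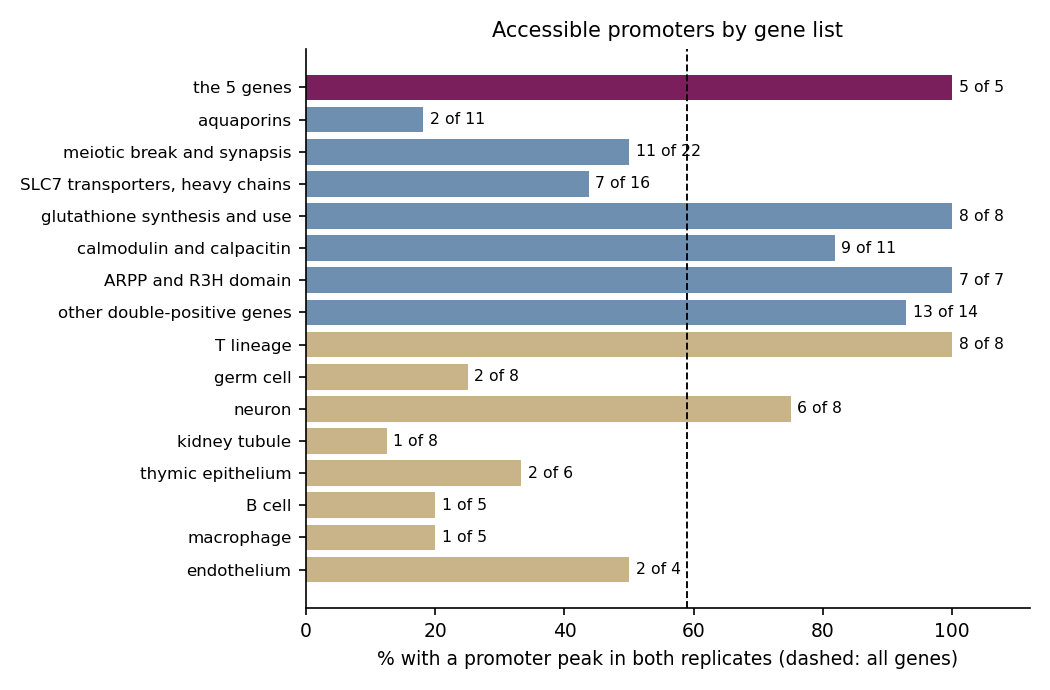
Share of genes with a strict promoter peak in both replicates (x axis, percent) for the 5 genes, 7 related lists and 8 lists of cell type markers; labels give accessible of measured genes, and the dashed line marks the 59.0% of all protein-coding genes. The aquaporin, germ cell and kidney tubule lists lie under the line, and the neuron list lies above it.

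Markers of other cell types were counted because the 5 genes are known from kidney, brain and germ line. All 8 T lineage markers were accessible, with means of 2.83 to 9.61. Among kidney tubule markers 1 of 8 was, Slc12a3 with 2.92 and 1.65, and Cubn, Umod and Slc34a1 had no strict peak. Among germ cell markers 2 of 8 were, Dazl with 5.73 and 5.03 and Prm1 with 4.64 and 2.81, and Acr, Ddx4, Stra8 and Tnp1 had none. Among neuron markers 6 of 8 were, led by Syp (7.22 and 5.02) and Syn1 (2.46 and 1.85), while the list's median of 1.01 was under the score of either neuronal gene among the 5. Of thymic epithelial markers 2 of 6 were accessible, Prss16 (3.43 and 3.07) and Epcam (1.90 and 1.53), while Foxn1, Krt5, Krt8 and Psmb11 had no strict promoter peak. Of B cell markers 1 of 5 was, Pax5 (4.87 and 4.08), and of macrophage markers 1 of 5, Mertk (0.807 and 0.924), while Ms4a1 and Csf1r had no strict peak in either replicate. Of endothelial markers 2 of 4 were accessible, Pecam1 (2.73 and 2.22) and Kdr (0.874 and 1.28). The part of cells other than thymocytes in the values of the 5 genes was not tested.

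The genes most like each of the 5 were sought over 3 values: the log2 promoter score plus 1 in each replicate and the log2 number of distal regions plus 1. They were Spen and Kmt5b for Spo11, at distances of 0.045 and 0.0756, and Acad10 and Tut7 for Aqp11, at 0.0112 and 0.0297. For Arpp21 they were Sema3f and Bcorl1 (0.0145 and 0.0533), for Nrgn Lamp2 and Ak5 (0.113 and 0.125), and for Slc7a11 Slc25a46 and B930094E09Rik, which share 1 peak, at 0.0366. With 2 replicates this likeness describes the height and number of peaks and nothing else.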

How the data were processed

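DNase-seq peak lists, false discovery rate (FDR) tracks and footprints on mm10, per the labels, were deposited for 2 replicates of thymus. Each deposited peak carries a signal score. Its scale, the aligner and the caller, not given in the sources used here, could change it, and depth is unknown. All scores under 1 were whole multiples (within 0.05) of 1 step, 0.00741 in replicate 1 and 0.00608 in replicate 2, and a median peak held 213 and 226 steps. The FDR that the authors deposited is a q-value per stretch of bases, listed up to 0.05. The deposited footprints carry the constant 0.01 and served as positions.

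Each replicate has a strict and a looser list, and every shared strict region at the 5 genes held a base with FDR up to 0.001. Overlapping entries of each strict list were joined, giving 62230 and 66839 peaks. Peaks of both replicates that overlapped by 1 bp formed 51709 shared regions. Promoter windows were 1000 bp, and reach was 50000 bp. TSSs within 1000 bp of the next formed 1 cluster. GENCODE M21 and GRCm38.p6 were used. Python 3.11.15, numpy 2.4.6, pandas 2.3.3, pysam 0.24.0, samtools 1.23.1 and matplotlib 3.10.9 were used. On simulated data the promoter and distal steps recovered 52 of 52 genes, each with 1 TSS and no other TSS nearby. Genes with more than 1 TSS, such as the 5 genes, and genes with close neighbours were not simulated. The genes and lists were chosen with earlier results of these data known; Hop2 was not matched. Besides the 5 genes, the text names neighbours with the nearest TSS, the 2 highest genes of each list and the first alphabetically without a shared peak, the 2 likest genes and the 2 highest distal regions per gene; further list members were named after their values were seen, and some genes that the rule takes are not reported here. Alternatives changed the peak list, window, TSSs, reach, overlap, distal limit, footprint overlap and replicates.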

Additional observations from a re-analysis of the deposited data

How the results depend on the processing

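All 5 genes kept an accessible promoter with the 50000 highest peaks, with a window of 500 bp and with the gene's 5′ end alone. They also kept it when only peaks with the gene's own TSS as the nearest were counted. The window of 2500 bp and each replicate alone only relax the rule, so they could not lose a gene. The looser list holds more peaks, and all 5 genes kept an accessible promoter there too. Of 192 recomputed values, 169 stayed within the spread between replicates or within 1.5 times the count, and 23 moved. A promoter score from 1 replicate alone always lies within the SD of 2 replicates, so those scores could not count as moved. The score of Slc7a11 was 2.91 with a window of 500 bp, since its highest peak lies further from the TSS, and that of Arpp21 was 2.58 at the 5′ end alone, which leaves out the third cluster. The 24 distal regions became 41 with a reach of 100000 bp, 43 with the looser list, and 33 to 50 with 1 replicate alone. When only regions over 2500 bp from any TSS were counted, 17 were left, with 3 for Arpp21 and 1 for Nrgn. At the 5′ end alone Slc7a11 had 0 distal regions, and with 1 replicate alone Spo11 had 16 to 20 and Aqp11 6 to 17. With the looser list Aqp11 had 11. The share of all genes with an accessible promoter ran from 54.3% to 62.7%. No paired analysis was possible because there is 1 group. With 2 replicates and unknown depth, an SD rests on 1 difference, and a missing peak means none was detected at this depth.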

Other observations

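Over all 29398 distal regions shared by the replicates, those with ETS letters in their central 200 bp had a median log2 ratio of replicate 2 over replicate 1 of -0.24, and those without had -0.01. For RUNX letters the medians were -0.23 and -0.05, and for E-box letters -0.17 and 0.01. Letters of CRE factors, with -0.28 and -0.06, and of NRF1, with -0.21 and -0.06, differed in the same way, but in fewer regions. They were held by 134 and 446 distal regions, against 6173 for ETS, 2554 for RUNX and 12104 for E-box letters. The order was the other way for some letters, among them AGGNGGC of CTCF, with 0.08 and -0.13. The cause was not tested.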
